A study of Mus musculus with 2 samples.

Results

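Lymphatic endothelial cells (LECs), which line the lymphatic vessels, were described in the mouse small intestine from a droplet single-cell RNA library of sorted stromal cells. They were chosen by the cell type label that the authors deposited for each cell. Of the 9359 labelled cells of the small intestinal library, 2498 carried the LEC label, a share of 26.7% (Clopper-Pearson 95% interval 25.8 to 27.6), out of 15377 cells in the series as a whole. The series consisted of 1 library from the small intestine and 1 from the colon of mice labelled as healthy and untreated. Per the labels' protocols, the epithelium was removed, collagenase and dispase digestion lasted 45 min for the small intestine and 60 min for the colon, live cells negative for CD45 and CD326 (EpCAM) were sorted, and about 16000 cells per library were loaded for 3' sequencing. How many mice were used, and their sex, age and strain, were not given in the sources used here.

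Lymphatic vessels of the small intestine begin as blind-ended lacteals inside the villi and as capillaries around the crypts, and drain into collecting vessels with valves. They return tissue fluid to the blood, carry absorbed fat packed in chylomicrons, and guide leukocytes to lymph nodes. LECs near the crypts are also known as a source of the R-spondin RSPO3 and the Wnt ligand WNT2, secreted factors that sustain intestinal stem cells, and of the glycoprotein reelin.

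The LECs held 11207713 unique molecular identifiers (UMIs, each marking 1 captured RNA molecule), between 824 and 19886 per cell. The median cell had 4117.5 UMIs from 2061.5 genes. They were set beside the blood endothelial cells (BECs, 524 cells, median 3651.5 UMIs), the 3 fibroblast types of the library, namely CD81+ trophocytes (1913 cells, median 7807 UMIs), CD81- fibroblasts (CD81- FBs, 2823 cells, 6977 UMIs) and PDGFRahi subepithelial fibroblasts (SEMFs, 1109 cells, 5510 UMIs), the smooth muscle cells (SMCs, 468 cells, 5644.5 UMIs) and the LECs of the colon library (217 cells, median 4545 UMIs). UMIs were summed over the cells of a type, and levels are given as CPM, a gene's UMIs per 1000000 UMIs of that type. Each tissue had 1 library and cells are not replicates, so no difference below has a replicate check or a test. All intervals are 95% intervals that cover counting error only. The labels were made from the same cells' gene levels, so the differences between types are descriptions.

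The 7 genes taken as markers of small intestinal LECs were read first. Lyve1, a hyaluronan receptor of lymphatic capillaries, was at 2973 CPM in LECs and 173 CPM in BECs, a log2 ratio of 4.10 (3.96 to 4.25). Mmrn1, which encodes the matrix protein multimerin, was at 4776 CPM in LECs and 298 CPM in BECs, a log2 ratio of 4.0 (3.89 to 4.11). Reln, the gene of reelin, was at 3273 CPM in LECs and 207 CPM in BECs, a log2 ratio of 3.99 (3.85 to 4.12). In the fibroblast types and SMCs each of these 3 genes was between 2.43 and 31.4 CPM, so LECs stood apart from every other compared type. At least 1 UMI of Lyve1 was found in 98.1% of LECs, 6.49% of BECs and 1.91% of CD81- FBs, and after thinning every cell to 1500 UMIs in 95.4%, 5.13% and 0.502% of those with at least that depth. Thinning kept 2443 LECs, 487 BECs and 2790 CD81- FBs, and left out the shallower cells, 55 of them LECs.

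Prox1, the transcription factor that specifies lymphatic identity, was at 804 CPM in LECs and 74.4 CPM in BECs and at most 5.70 CPM in the fibroblast types and SMCs. Its UMIs were found in 88.7% of LECs (65.9% after thinning) and 11.5% of BECs (6.37% after thinning). The cells labelled LECs thus carried the defining markers of that type. The other markers were detected in fewer LECs.

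Rspo3 was at 281 CPM in LECs, 138 in CD81+ trophocytes, 63.8 in CD81- FBs, 32.4 in SMCs, 31.5 in BECs and 16.1 in SEMFs. LECs were therefore highest among the compared types, with the trophocytes next. They were also the first and next by the share of cells with a UMI, 60.1% of LECs against 51.2% of trophocytes, or 31.9% against 17.4% after thinning. Wnt2 was at 214 CPM in LECs and at most 9.12 CPM in the other types of the library. Its UMIs were found in 55.3% of LECs, 2.48% of BECs and 0.354% of CD81- FBs, and after thinning in 26.9%, 0.205% and 0.108%. Cyp26b1 encodes an enzyme that breaks down retinoic acid. It was shared by both endothelial types, at 423 CPM in LECs and 359 CPM in BECs, a log2 ratio of 0.24 (0.13 to 0.35), and was at or below 3.56 CPM elsewhere in the library. Of the markers given, Cyp26b1 thus marked endothelium of the small intestine rather than LECs alone.

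**Figure D1:**
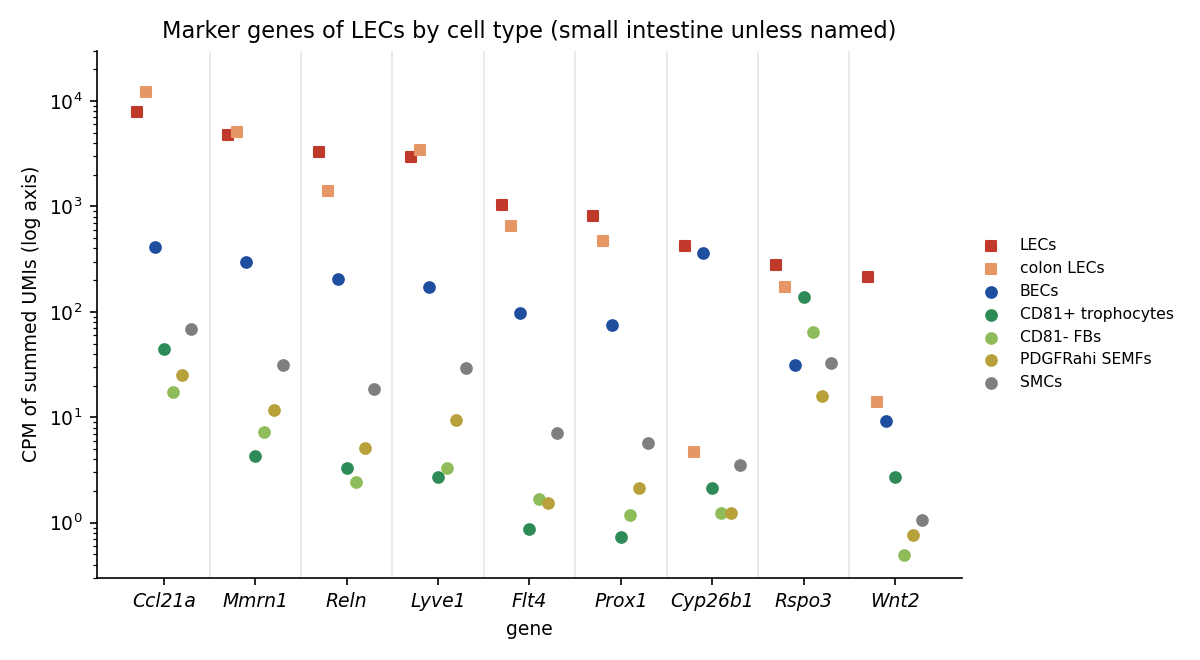
Level of 9 genes (horizontal axis) in the compared cell types, as CPM of summed UMIs on a log axis. Squares are LECs of the small intestine and colon, and circles are the other types of the small intestine. Lyve1, Mmrn1, Reln and Prox1 are highest in LECs, Cyp26b1 lies close in LECs (423 CPM) and BECs (359 CPM), and Wnt2 falls to 14.1 CPM in colon LECs.

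Most UMIs of lymphatic markers in BECs came from few cells, though less so for Prox1 and Flt4. In 25 of the 524 BECs (4.77%), 6 lymphatic markers (Prox1, Lyve1, Mmrn1, Reln, Ccl21a and Flt4) made up more than 0.3% of the UMIs, and these cells held 92.5% of the BECs' UMIs of those markers. They had a median of 8978 UMIs, against 3651.5 over all BECs. Without these 25 cells, a choice made after seeing the data, the log2 ratio of LECs to BECs went to 9.19 for Lyve1 (10 UMIs left in BECs), 8.49 for Mmrn1, 8.33 for Reln, 4.69 for Prox1, 6.52 for Rspo3 (6 UMIs left) and 8.71 for Wnt2 (1 UMI left, interval 6.23 to 14.02). For Cyp26b1 it was 0.32. In the other BECs Prox1 stayed at 31.1 CPM and Flt4 at 34.2 CPM, against 74.4 and 97.2 CPM over all BECs. The 25 cells were chosen by the 6 markers. Both the 92.5% and the change in the ratios of Lyve1, Mmrn1, Reln and Prox1 thus follow in part from that choice.

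Of the 9497 genes with at least 100 UMIs in LECs and BECs together, 1289 (13.6%) were at least 2-fold higher in LECs and 786 (8.28%) at least 2-fold lower, and the median log2 ratio was 0.22. Without the 25 BECs the counts were 1429 and 809. The shares of 13.6% and 8.28% are the background for the list counts against BECs below. Against the pooled fibroblasts, 1603 of 12676 genes (12.6%) were at least 2-fold higher and 2573 (20.3%) lower, with a median log2 ratio of -0.01. Across 11113 genes the profile of the LECs had a Spearman correlation of 0.913 with colon LECs, 0.825 with BECs, and 0.646 to 0.664 with the fibroblast types and SMCs. These correlations run across genes, which are not independent replicates.

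Lymphatic identity genes were high together. Of the 15 listed genes, 14 were at least 2-fold higher in LECs than in BECs and none was lower, with a median log2 ratio of 3.81 beside 0.22 over all genes, and 6.42 without the 25 BECs. For 13 of the 15, LECs had the highest level of the compared types, as they did for 26.6% of the 9497 genes tested against BECs. Ccl21a, the chemokine that draws dendritic cells and T cells into lymphatics, was at 7839 CPM in LECs and 416 CPM in BECs. Flt4, the receptor of the lymphatic growth factor VEGF-C, was at 1026 CPM in LECs and 97.2 CPM in BECs. The transcription factor genes Maf (1524 and 109 CPM), Tbx1 (189 and 12.8) and Nr2f2 (1006 and 380.4) were also higher in LECs. Sox18, which acts upstream of Prox1 in development, was the exception, at 346 CPM in LECs and 513 CPM in BECs, a log2 ratio of -0.57 (-0.66 to -0.47). The list of lymphatic capillary genes, which shares 4 members with this one, gave 6 of 7 genes higher and 1 lower (Cd36), with a median of 3.72. That of valve and collector genes gave 6 of 11 higher and 3 lower, with a median of 1.17. Ccl21a has near-identical gene copies, among which reads could be divided. Pdpn, the gene of podoplanin, separated LECs (288 CPM) from BECs (22.4 CPM) but not from the fibroblast types, which lay between 222 and 343 CPM.

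Genes shared by all endothelium were mostly within 2-fold between the vessel types. None of the 14 pan-endothelial genes was at least 2-fold higher in LECs and 4 were lower (Esam, Tek, Pecam1 and Eng), with a median log2 ratio of -0.59. The adhesion gene Pecam1 was at 440.2 CPM in LECs and 1035 CPM in BECs, and Cdh5, the gene of VE-cadherin, at 463 and 673 CPM. Esam, a tight junction adhesion gene of blood endothelium, was nearly absent from LECs, at 9.28 against 668 CPM.

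Genes of blood vessels were mostly low in LECs. Of the 13 compared genes of that list, 10 were at least 2-fold lower than in BECs and 1 was higher, with a median log2 ratio of -6.20. Flt1, a VEGF receptor of blood vessels, was at 5.26 CPM in LECs and 1579 CPM in BECs, and Plvap, a protein of the diaphragms of blood capillaries, at 18.6 and 2576 CPM. Esm1 was 0 of 11207713 UMIs in LECs. Some genes named for blood endothelium went the other way or were shared. Gpihbp1, which anchors lipoprotein lipase to capillary walls, was at 348 CPM in LECs and 48.4 CPM in BECs, a log2 ratio of 2.85 (2.57 to 3.14), and Emcn, the gene of endomucin, at 827 and 646 CPM. At the far end of the comparison, the 10 genes that were lowest in LECs by a ratio with 10 CPM added were Mecom, Tmem252, Flt1, Ly6c1, Plvap, Selp, Ackr1, Adgrg6, Ly6a and Entpd1. Mecom, a transcription factor gene of arterial endothelium, was at 2.86 CPM in LECs and 1673 in BECs. Ackr1, an atypical chemokine receptor of venules, was at 0.625 and 510.0 CPM, and Selp, the gene of P-selectin, at 35.1 and 2578 CPM.

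**Figure D2:**
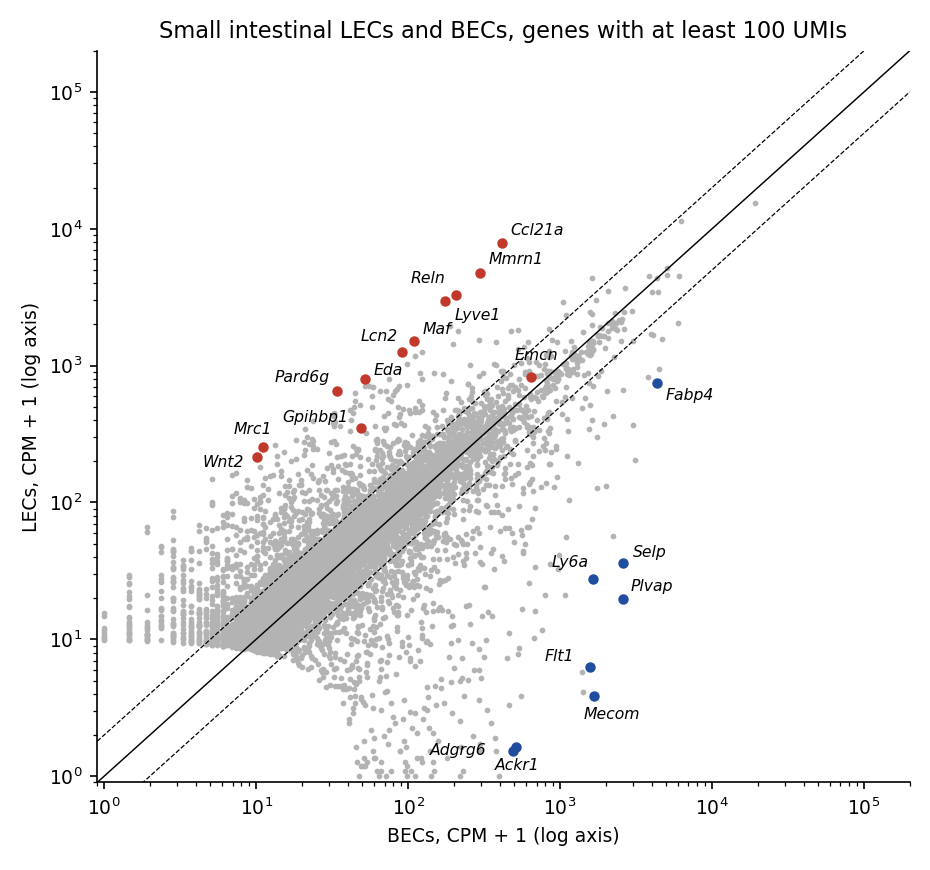
Level of each gene with at least 100 UMIs in both types together, in BECs (horizontal) and LECs (vertical) of the small intestine, as CPM plus 1 on log axes. The solid line marks equal levels and the dashed lines a 2-fold difference. Ccl21a, Mmrn1, Reln and Lyve1 lie far above the lines, Plvap, Flt1 and Mecom far below, and Emcn close to the line of equal levels.

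Markers of other cell types were low in most LECs. The summed level of 7 fibroblast markers was 897 CPM in LECs, 477 in BECs and 2298 in colon LECs, against 16582 to 46087 in the fibroblast types. In the cells labelled SMCs it was 22986 CPM, above the 14808 CPM of 6 smooth muscle markers, and Dcn was found in 98.3% of them. Values given for SMCs are thus those of a label whose cells also carried fibroblast markers. In 66 LECs (2.64%) at least 5 UMIs of these markers were found, and these cells held 79.4% of the LECs' fibroblast marker UMIs. They had a median of 6958 UMIs against 4091 in the other LECs, and Prox1 was at 463 CPM in them against 821. The matrix gene Dcn was at 7177 CPM in the 66 cells and 83.7 CPM in the others. The summed level of 6 smooth muscle markers was 133 CPM in LECs and 46.1 in BECs, of 5 pericyte markers 155 and 25.1, of 7 immune markers 2.23 and 2.28 (Cd3e at 0), of 4 plasma cell markers 101 and 105, of 6 epithelial markers 6.78 and 10.9, of 4 glial markers 4.82 and 2.28, of 3 markers of interstitial cells of Cajal 15.3 and 10.9, of 4 haemoglobin genes 3.93 and 11.4, and of the mesothelial genes Krt19 and Wt1 0 and 19.2. Of the pericyte markers, Kcnj8 was found in 28.8% of LECs, 28.6% of colon LECs, 1.72% of BECs and 82.0% of SEMFs, and Abcc9 in 10.4% of LECs. Both were at least 2-fold higher in LECs than in BECs. The variance of Kcnj8 among LECs beyond counting (1 for none) was 1.45, or 1.42 without the 66 LECs. Scrublet marked 14 LECs (0.560%) as doublets, and none was removed.

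Against every other compared type at once, 212 of 11238 genes (1.89%) were at least 4-fold higher in LECs, where the median log2 ratio over all genes was -0.44. The 15 genes with the largest ratio to the highest other type, with 10 CPM added, were Ccl21a, Lyve1, Mmrn1, Reln, Pard6g, Mrc1, Lcn2, Gpm6a, Apba2, Wnt2, Sh3gl3, AA467197, Thy1, Cyp4b1 and Kcnk5. Mrc1, the mannose receptor also known from macrophages, was at 254 CPM in LECs and 10.0 CPM in BECs and was found in 55.6% of LECs, while the 7 immune markers together came to 2.23 CPM. Lcn2, the gene of the iron-sequestering protein lipocalin 2, was at 1264 CPM in LECs and 90.8 CPM in BECs and in 93.0% of LECs. Pard6g, a cell polarity gene, was at 657 CPM in LECs and at most 38.9 elsewhere in the library. Cyp4b1, a cytochrome P450 gene, was at 699.7 CPM in LECs and 57.5 CPM in BECs, and the potassium channel gene Kcnk5 at 301 and 20.5 CPM. Thy1, the gene of the surface protein CD90, was found in 47.1% of LECs at 163 CPM and was at most 6.39 CPM in the other types. The glycoprotein gene Gpm6a (395 and 22.8 CPM in LECs and BECs), the adaptor gene Apba2 (262 and 12.3) and the endophilin gene Sh3gl3 (342 and 20.1) showed the same pattern. Among the 10 genes highest over BECs were also Eda, the gene of ectodysplasin, at 795 CPM in LECs and 51.1 CPM in BECs, and Maf.

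The receptors for vascular growth factors were divided between the vessel types. Of 9 compared genes of the VEGF-C list, 3 were at least 2-fold higher in LECs (Flt4, Nrp2 and Ptpn14) and 4 lower (Nrp1, Vegfc, Clec14a and Pdgfb), with a median log2 ratio of -0.88. Nrp2, the co-receptor of VEGF-C, was at 1499 CPM in LECs and 379 CPM in BECs, a log2 ratio of 1.99 (1.88 to 2.09). Its paralogue Nrp1 was at 6.33 and 443 CPM, a log2 ratio of -6.13 (-6.50 to -5.78), so the pair ran in opposite directions. Kdr, the main VEGF receptor of blood endothelium, was higher in LECs, at 815 against 441 CPM. The ligand Vegfc was at 5.00 CPM in LECs, 290.1 in BECs and 74.8 to 158 in the fibroblast types and SMCs. The ligand was thus lower in LECs than in each of the other compared types.

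In the list of angiopoietin, adrenomedullin and sphingosine-1-phosphate genes, 4 of 12 were at least 2-fold higher in LECs and 1 was lower, with a median log2 ratio of 0.44. For 1 of the 4 higher genes, the variance among LECs beyond counting (1 for none) was 5.17. It was 1.18 without the 66 LECs that held fibroblast UMIs. The ligand gene Angpt2, which lymphatic growth requires, was at 61.5 CPM in LECs, a log2 ratio to BECs of 1.24 (0.85 to 1.66), and Angpt1 at 74.4 and 11.9 CPM. Their receptor Tek was at 177 and 431 CPM, and its partner Tie1 at 177 and 135. The adrenomedullin receptor genes Calcrl (431 and 825 CPM) and Ramp2 (696 and 1087), the sphingosine-1-phosphate receptor S1pr1 (352 and 467) and the exporter Spns2 (164 and 159) were within 2-fold between both vessel types.

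Genes of leukocyte traffic separated into a lymphatic and a blood set. Of 17 compared genes, 7 were at least 2-fold higher in LECs (Mrc1, Ccl21a, Lyve1, Il7, Ackr2, Stab1 and Il33) and 4 lower (Madcam1, Vcam1, Cxcl12 and Cd200), with a median log2 ratio of 0.31. Il7, the survival cytokine of lymphocytes, was at 133 CPM in LECs and 10.0 CPM in BECs and at most 5.67 CPM in the fibroblast types and SMCs. Il33, an alarmin, was at 453 CPM in LECs and 72.5 CPM in BECs, but also at 422 CPM in SMCs and 267 in CD81+ trophocytes. The scavenger receptor Stab1 was at 647 and 80.7 CPM. Among the chemokine scavengers, Ackr2 was at 66.7 CPM in LECs and at most 5.93 elsewhere in the library, Ackr3 at 566 in LECs and 331 in BECs, and Ackr4, which shapes gradients of CCL21, at 7.49 in LECs against 617 in CD81+ trophocytes. Madcam1, the addressin that gut-homing lymphocytes bind on blood vessels, was 0 of 11207713 UMIs in LECs and 395 CPM in BECs. Vcam1 was at 4.19 and 224 CPM, whereas Icam1 was within 2-fold, at 457 and 851 CPM.

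Of 16 listed antigen presentation and interferon genes, 15 had their highest level among the compared types in LECs. This was so for 26.6% of the 9497 genes tested against BECs. Most differences of the listed genes from BECs were small. Of 15 compared with BECs, 5 were at least 2-fold higher (among them H2-Ab1, H2-Eb1, H2-Aa and Cd74) and none was lower, with a median log2 ratio of 0.85 beside 0.22 over all genes. The class I gene H2-K1 was at 3501 CPM in LECs, 2069.6 in BECs and 1747 to 2683 in the fibroblast types and SMCs, and B2m, its light chain, at 2449 in LECs. The class II gene H2-Ab1 was at 58.0 CPM in LECs and 10.0 CPM in BECs and was found in 17.1% of LECs, 3.44% of BECs and 1.56% of CD81- FBs. The invariant chain gene Cd74 was at 99.1 and 48.4 CPM, and Ciita, the activator of class II genes, at 2.59 and 1.37. Class II levels in LECs were thus low but above those of the fibroblast types, which were at most 3.66 CPM for H2-Ab1, and immune markers were at 2.23 CPM.

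LECs carried a narrow set of stem cell niche signals. Of 12 niche genes compared with BECs, 6 were at least 2-fold higher in LECs and 1 was lower, with a median log2 ratio of 1.07. Of 20 compared with the pooled fibroblasts, 6 were higher (Reln, Wnt2, Wnt9b, Tgfb1, Rspo3 and Pdgfa) and 13 lower, with a median log2 ratio of -4.55. Of all genes tested against the pooled fibroblasts, 12.6% were higher and 20.3% lower, with a median of -0.01. The R-spondins were divided by cell type: Rspo3 was highest in LECs, whereas Rspo2 was at 1.25 CPM in LECs and 140.3 in CD81+ trophocytes, and Rspo1 was 0 of 11207713 UMIs in LECs and 11.8 CPM in CD81+ trophocytes. Grem1, an inhibitor of BMP signals, was at 11.7 CPM in LECs and 1298 in CD81+ trophocytes. It was among the 6 genes higher than in BECs, but was found in 2.36% of LECs. Its variance among LECs beyond counting (1 for none) was 2.55, or 1.22 without the 66 LECs that held fibroblast UMIs. Nrg1, a ligand of ErbB receptors, was at 1.07 CPM in LECs and up to 108 in SMCs. Tgfb1 was at 150.4 CPM in LECs, 77.1 in BECs and at most 18.2 in the fibroblast types and SMCs, and Wnt9b was found in 4.24% of LECs at 9.81 CPM and was at most 1.82 CPM elsewhere in the library.

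Genes of retinoid metabolism and response differed by role. Of 8 retinoid genes compared with BECs, 3 were at least 2-fold higher (Rarb, Aldh1a1 and Dhrs3) and 1 lower (Rara), with a median log2 ratio of 0.28 beside 0.22 over all genes. Rarb, a retinoic acid receptor gene that is itself a target of retinoic acid, was at 398 CPM in LECs and 41.1 CPM in BECs, a log2 ratio of 3.28 (2.98 to 3.59). Dhrs3, which turns retinaldehyde back into retinol, was at 364 CPM in LECs and 82.6 CPM in BECs. The synthesis genes Aldh1a1, Aldh1a2 and Aldh1a3 were at 9.81, 2.86 and 4.37 CPM in LECs, and at 1117, 195 and 86.3 CPM in SEMFs. Aldh1a1 UMIs were found in 1.64% of LECs, and its variance among LECs beyond counting (1 for none) was 2.76, or 0.91 without the 66 LECs that held fibroblast UMIs. LECs thus had more of Cyp26b1, Rarb and Dhrs3 than SEMFs (1.23, 39.2 and 22.5 CPM) and less of the synthesis genes.

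Fat transport genes did not run in 1 direction. Of 16 lipid handling genes, 4 were at least 2-fold higher in LECs than in BECs (among them Lpl, Gpihbp1 and Angptl4) and 6 lower (Scarb1, Cd36, Fabp5, Apoe, Fabp4 and Abcg1), with a median log2 ratio of -0.03. The fatty acid transporter Cd36 was at 34.4 CPM in LECs and 862 CPM in BECs, a log2 ratio of -4.65 (-4.81 to -4.49). The fatty acid binding protein gene Fabp4 was at 745 and 4331 CPM, and Fabp5 at 13.7 and 304. Lpl, the lipase that Gpihbp1 binds, was at 119 CPM in LECs, 16.4 in BECs and 228 in CD81- FBs.

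Of 17 junction genes, 3 were at least 2-fold higher in LECs than in BECs (among them Cldn11 and Gja1) and 6 lower. Of all genes tested, 13.6% were higher and 8.28% lower. The median log2 ratio of the junction genes was -0.45. Cldn5, the main claudin of endothelium, was at 715 and 811 CPM. Jam2 was at 0.981 and 268 CPM, and Heg1, a cell surface partner of the CCM proteins, at 75.3 and 653. The connexin gene Gja1 was at 363 and 128 CPM, and Gja5, an arterial connexin, was 0 of 11207713 UMIs in LECs and 46.5 CPM in BECs.

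Of 22 matrix and anchoring genes, 6 were at least 2-fold higher in LECs than in BECs (Mmrn1, Emilin1, Lama4, Itga9, Timp2 and Nid2) and 4 lower (Itga6, Itga5, Mmp2 and Col4a2), with a median log2 ratio of 0.36. Emilin1, part of the filaments that tether lymphatic capillaries to elastic fibres, was at 176 CPM in LECs and 28.3 CPM in BECs, and its receptor subunit Itga9 at 440.3 and 88.0 CPM. Lama4, a laminin chain of vessel walls, was at 868 and 168 CPM. The protease inhibitor gene Timp3 was at 3036 CPM in LECs and 1709.7 in BECs, both above the 107 to 753 CPM of the fibroblast types and SMCs.

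Guidance genes were also divided between the vessel types. Of 15, 5 were at least 2-fold higher than in BECs (Sema3a, Sema3d, Ntn1, Nrp2 and Unc5b) and 4 lower (Nrp1, Slit2, Slit3 and Ntn4), with a median log2 ratio of 0.60. The semaphorin genes Sema3a (389.6 and 31.9 CPM) and Sema3d (476 and 40.6) encode secreted ligands of the neuropilins. Ntn1, the gene of netrin 1, was at 1254 CPM in LECs and 122 CPM in BECs, and its receptor Unc5b at 140.0 and 39.2. The Slit genes lay on the fibroblast side, with Slit3 at 2178 CPM in CD81+ trophocytes and 79.4 in BECs, and a log2 ratio of LECs to BECs of -1.40 (-1.67 to -1.13).

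Transcription factors of lymphatic development gave 8 of 19 genes at least 2-fold higher in LECs than in BECs and 4 lower (Klf2, Gata2, Klf4 and Hhex), with a median log2 ratio of 0.14. Besides Prox1, Maf, Tbx1 and Nr2f2, Foxp2 was at 157 CPM in LECs and 11.9 CPM in BECs, but higher in CD81+ trophocytes at 721 CPM. Foxc2, which lymphatic valves require, was found in 10.3% of LECs and 1.34% of BECs, at 25.7 and 4.11 CPM. Klf2, which responds to blood flow and belongs to the early response genes of dissociated tissue, was at 946 and 4445 CPM. In the Notch list, 1 of 11 genes was at least 2-fold higher in LECs (Notch2, 77.1 and 10.0 CPM) and 5 were lower. Of all genes tested, 13.6% were higher and 8.28% lower. The median log2 ratio of the Notch genes was -0.78. The receptor gene Notch1 (334 and 183 CPM) and the ligand gene Dll4 (87.8 and 83.9) were within 2-fold, and Jag1 was at 24.9 and 106 CPM.

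Of 17 immediate early and heat shock genes, which respond to dissociation, 2 were at least 2-fold higher in LECs (Hspa1b and Hsp90aa1) and 8 lower, all of them immediate early genes, with a median log2 ratio of -1.0 and summed levels of 19378 CPM in LECs and 41180 in BECs. Cell cycle genes were sparse in LECs: 4 of the 14 could be compared, none was at least 2-fold higher and 1 was lower (Stmn1), and the list summed to 178 CPM, against 235 in BECs. Mki67, a marker of dividing cells, was found in 15 LECs (0.600%).

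**Figure D3:**
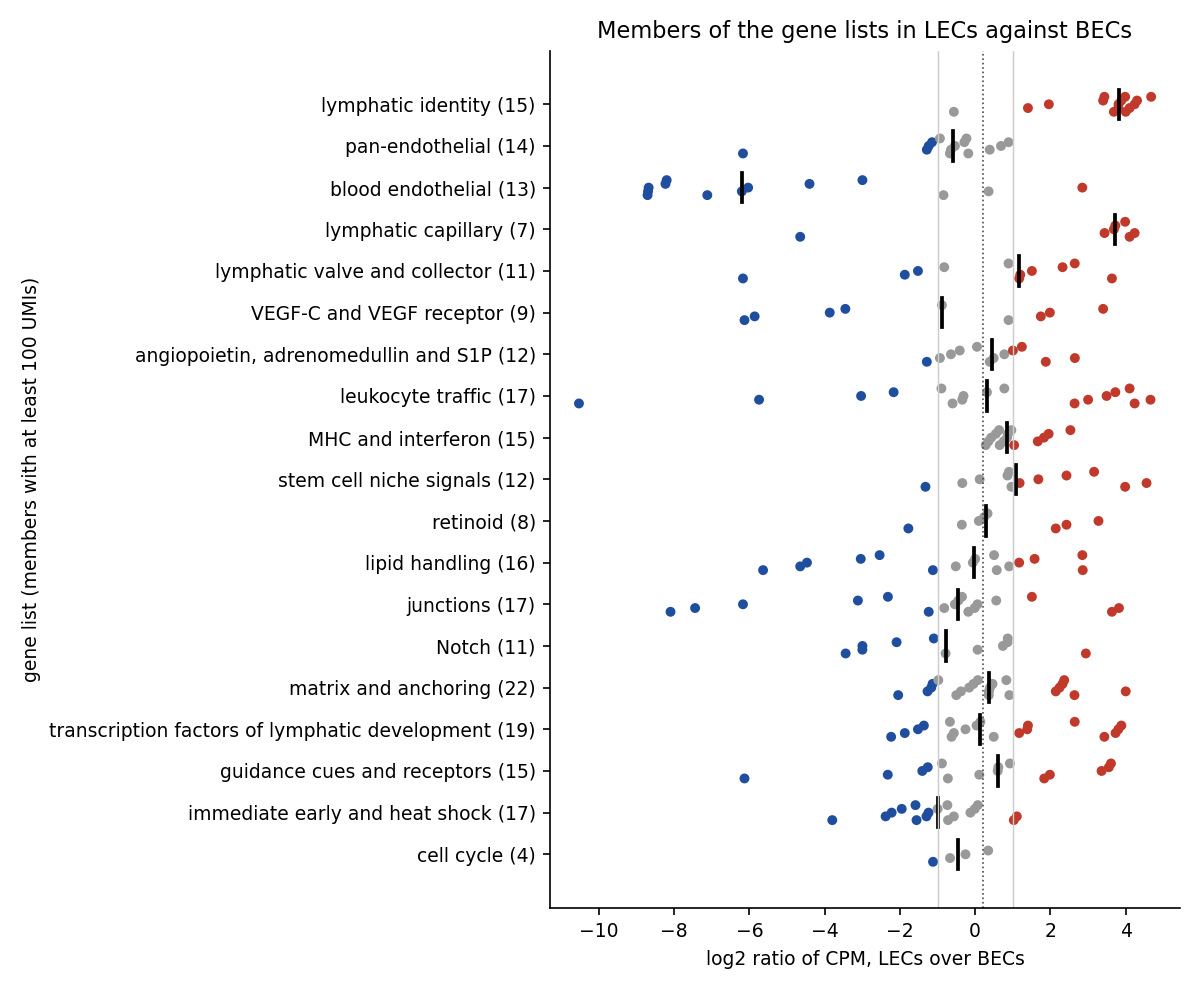
Log2 ratio of CPM in LECs over BECs (horizontal axis) for the members of 19 gene lists with at least 100 UMIs in both types together, 1 point per gene. Red points are at least 2-fold higher in LECs, blue points at least 2-fold lower, black bars are list medians, grey lines mark 2-fold and the dotted line the median of all genes (0.22). The lymphatic identity list has a median of 3.81 and the blood endothelial list one of -6.20, while most other lists spread to both sides.

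Variation among the LECs was read as the variance of Pearson residuals, which is near 1 for a gene that varies no more than counting at the cells' depths would give. Of 11398 genes, 499 had a residual variance of at least 2, and 364 of 11187 did without the 66 LECs that held fibroblast marker UMIs. The 15 most variable genes were Gm42418, Dcn, Malat1, Hspb1, Fos, Gsn, Ccl21a, Sparc, Hspa1b, Hspa1a, Adamdec1, Col3a1, Nts, Igfbp5 and Col1a2. Without the 66 cells the residual variance went from 15.9 to 1.17 for Dcn, from 13.7 to 1.18 for Gsn and from 10.1 to 1.12 for the collagen gene Col3a1. Dcn and Col3a1 are among the markers by which those cells were chosen. Fos, an immediate early gene, had a residual variance of 13.7, and the heat shock genes Hspb1 and Hspa1b of 14.1 and 11.1. Reads of the near-identical genes Hspa1a and Hspa1b could be divided between them.

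The marker genes varied less. At 1500 UMIs per cell, Lyve1 had a median of 4 UMIs (range 0 to 16), Reln of 4 (0 to 19) and Mmrn1 of 7 (0 to 21), and Ccl21a ranged more widely, with a median of 10 (0 to 69). Over all LECs at full depth, the residual variance was 2.74 for Lyve1, 3.44 for Reln, 2.96 for Mmrn1 and 12.2 for Ccl21a. Wnt2 had a residual variance of 1.30 and Rspo3 of 2.34. For the same relative spread, residual variance is lower in genes with fewer UMIs. Wnt2 had 2401 UMIs in LECs and Reln 36682, so these values do not rank the markers by how evenly they were spread. The value for Rspo3 includes 1 LEC that held 74 of its 3154 UMIs, and it was not computed without that cell. For Wnt2, the most in 1 LEC was 9 of 2401 UMIs. No gene had a Spearman correlation above 0.3 with Rspo3, Lyve1, Reln, Wnt2, Cyp26b1 or Ccl21a across 2380 LECs thinned to 1 depth and 2834 genes, and the highest was 0.24, between Reln and Dlg1. At that depth Wnt2 was 0 in 73.1% of 2443 LECs, Rspo3 in 68.1% and Cyp26b1 in 59.0%. Such sparse counts lower rank correlations, so for these genes the values cannot show whether other genes varied with them.

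Clustering of the LECs alone gave 6 clusters of at least 25 cells, which are described by their leading genes and are not named. The genes that define clusters were used to make them, so their values are descriptions. Cluster 1 (699 cells, 28.0%) was led by genes of the immediate early response and its feedback, among them Socs3 (451 CPM against 106 in the other LECs), Zfp36 (1785 against 498) and Junb (3305 against 975), with Clca3a1, Gadd45b and Fmo1. Cluster 2 (684 cells) was led by Cyp1a1 (133 against 61.9 CPM), with Igfbp5, Rbp7, Ltc4s and Thrsp. Cluster 3 (625 cells) was led by the chemokine gene Ccl2 (158 against 34.5 CPM), Fat3, Tnfaip3, Ifrd1 and the chaperone genes Dnaja4 and Hsph1. Cluster 4 (411 cells) was led by Zmat4 (122 against 25.0 CPM), Pld5, Rsad2, Adam12, Anks1b and Pde3b. The immediate early and heat shock list summed to 33190.5 CPM in cluster 1, 8834 in cluster 2, 22957 in cluster 3 and 7884 in cluster 4, so these 4 clusters differed in dissociation genes as well. Cyp26b1 ran the other way, at 323, 512, 387 and 601 CPM, while Rspo3 was level, at 266 to 293 CPM.

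The smaller clusters were of different kinds. Cluster 5 (53 cells) was led by Dcn (8046 against 90.0 CPM), Lama2, Hpse2, Acta2, Gsn and Col1a2, genes of fibroblasts and smooth muscle. Of its cells 47 were among the 66 LECs with at least 5 fibroblast marker UMIs, their median depth was 9275 UMIs, and Prox1 was at 376 CPM in them. Cluster 6 (26 cells, median 5492 UMIs) was led by Flrt2 (475 against 15 CPM), Tgfa, Jam3, Timp4, Gata6 and Tspan7. It kept Prox1 at 943 CPM and had Ccl21a at 12133 CPM. Of the valve and collector list, Cldn11, a claudin of lymphatic valves, was at 136 CPM against 9.67 in the other LECs, Foxc2 at 67.9 against 25.1, and the connexin gene Gja4 at 278 against 81.8. Itga9, another valve gene, was at 434 against 440.4 CPM. The whole list summed to 2232 CPM in cluster 6, 2449 in cluster 1 and 2060 in all LECs, so cluster 6 did not stand out by this sum. Abundant members weigh most in it, such as Klf4 with 5475 UMIs in all LECs, against 127 of Cldn11 and 288 of Foxc2. The sum therefore says little about the rarer members. The values of cluster 6 rest on 26 cells. Rspo3 was at 129 CPM and Cyp26b1 at 122 in these cells, and Cyp1a1 had no UMI.

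**Figure D4:**
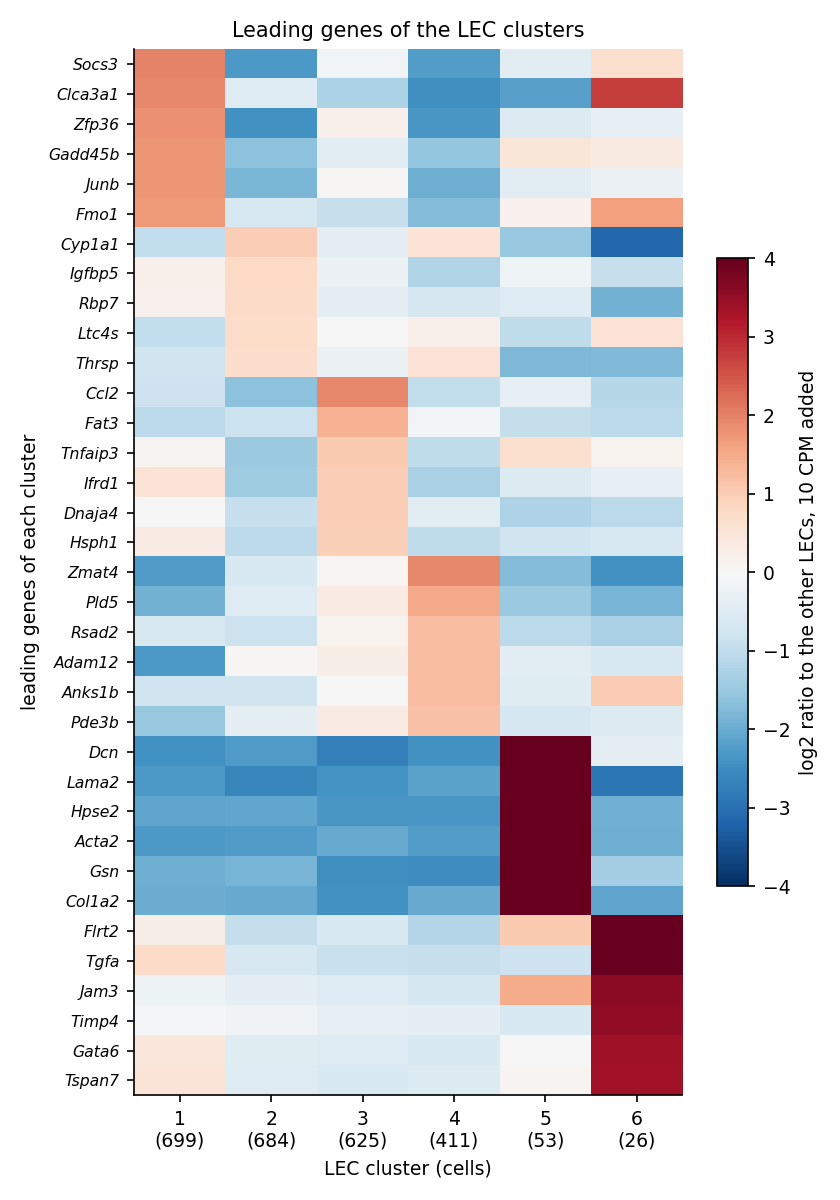
Log2 ratio of the CPM of each LEC cluster to the other LECs, with 10 CPM added to both, for up to 6 leading genes of each cluster (rows), with the number of cells under each cluster number. Red is higher and blue lower, and colours stop at 4. Cluster 5 stands out by Dcn, Lama2 and Gsn, and cluster 6 (26 cells) by Flrt2 and Tgfa.

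When the 66 LECs with fibroblast marker UMIs were left out, 1 of the 5 clusters was led by genes that type I interferon induces. It held 134 cells (5.51%, interval 4.64 to 6.49). Ifit3 was at 440.4 CPM in it against 39.7 in the other LECs, Ifit1 at 359 against 41.2, Rsad2 at 453 against 61.5 and Isg15 at 711 against 104. Reads of Ifit3 and its close copy Ifit3b could be divided between them. With all LECs at the same resolution no cluster was led by Ifit3, and Rsad2 and Ifit2 were among the leading genes of cluster 4. At a finer resolution, 100 of all LECs formed a cluster led by Ifit3, Rsad2 and Ifit1.

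The promoters of Isg15, Ifit1 and Ifit3 are shown because each held the same motif. The sequences are from RefSeq on GRCm38.p6 and run 5′ to 3′ on the gene's strand from 250 bases before to 50 bases after its start. Capitals mark every match, on either strand and with overlaps joined, to GAAA, any 2 bases and GAAA, the core of the element that interferon-activated factors bind. The regions are chr4:156200769-156201068, minus strand, for Isg15, chr19:34640639-34640938, plus strand, for Ifit1, and chr19:34583279-34583578, plus strand, for Ifit3.
Isg15: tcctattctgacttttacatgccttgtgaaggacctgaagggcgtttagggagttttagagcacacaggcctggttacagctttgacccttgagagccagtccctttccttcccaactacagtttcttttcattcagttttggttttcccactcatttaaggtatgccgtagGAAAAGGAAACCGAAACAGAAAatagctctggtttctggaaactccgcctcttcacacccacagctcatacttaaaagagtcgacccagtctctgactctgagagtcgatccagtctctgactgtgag
Ifit1: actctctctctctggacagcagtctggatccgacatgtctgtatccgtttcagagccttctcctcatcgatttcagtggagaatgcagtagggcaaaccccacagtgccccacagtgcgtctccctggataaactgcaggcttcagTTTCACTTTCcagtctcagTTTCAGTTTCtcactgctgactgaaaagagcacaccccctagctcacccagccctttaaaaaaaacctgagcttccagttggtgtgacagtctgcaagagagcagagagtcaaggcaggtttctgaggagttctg
Ifit3: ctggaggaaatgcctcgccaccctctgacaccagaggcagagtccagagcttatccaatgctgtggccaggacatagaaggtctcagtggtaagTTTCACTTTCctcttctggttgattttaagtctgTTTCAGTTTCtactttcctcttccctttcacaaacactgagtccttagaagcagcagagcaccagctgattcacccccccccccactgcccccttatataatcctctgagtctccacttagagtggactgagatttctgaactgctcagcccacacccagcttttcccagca
The Isg15 window held 3 overlapping matches, and the Ifit1 and Ifit3 windows held 2 each. Of the 12 leading genes of the 134 cells, 10 had a promoter in the table, and 5 of these held the motif (Ifit1, Ifit3, Ifit3b, Isg15 and Rsad2). Of 32851 promoters of the same length, from 27025 genes, 3.44% held it. The units differ, since a leading gene was counted if any of its promoters matched. Ifit3 and its close copy Ifit3b were counted separately. A match describes the letters of the window and shows no binding.

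Genes of the aryl hydrocarbon receptor, a sensor of dietary and microbial compounds, were on none of the lists, and are described because Cyp1a1 led a cluster and Cyp1b1 was among the genes with the largest ratio to colon LECs; Ahrr was added after its values were seen. Cyp1a1, its best known target, was at 77.0 CPM in LECs and 41.1 CPM in BECs, and was found in 18.1% of LECs, 8.02% of BECs and 0.0354% of CD81- FBs. Cyp1b1 was at 253 CPM in LECs and 74.8 CPM in BECs, but also at 156 CPM in CD81+ trophocytes and 105 in CD81- FBs. Its UMIs were found in 52.2% of LECs, 51.2% of trophocytes and 38.7% of CD81- FBs. Ahrr, the gene of the receptor's repressor, was at 71.6 CPM in LECs and 21.4 in BECs. In colon LECs Cyp1b1 was 0 of 1065387 UMIs. With that 0 replaced by a floor of 3 counts, its log2 ratio of small intestinal to colon LECs was 6.49. The lower counting limit was 6.19, and there was no upper limit. Ahrr was at 0.939 CPM (1 UMI), a log2 ratio of 6.25 (3.77 to 11.56). Cyp1a1 was not listed in the colon table and was not compared. The promoters of both cytochrome genes are given because the receptor binds at GCGTG, set in capitals on either strand, on chr9:57697363-57697662, plus strand, for Cyp1a1, and chr17:79715012-79715311, minus strand, for Cyp1b1.
Cyp1a1: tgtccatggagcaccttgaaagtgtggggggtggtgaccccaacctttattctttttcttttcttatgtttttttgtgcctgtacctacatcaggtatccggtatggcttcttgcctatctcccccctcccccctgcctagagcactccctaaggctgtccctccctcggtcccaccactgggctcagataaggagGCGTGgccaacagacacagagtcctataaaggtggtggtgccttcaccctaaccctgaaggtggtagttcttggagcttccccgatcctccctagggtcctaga
Cyp1b1: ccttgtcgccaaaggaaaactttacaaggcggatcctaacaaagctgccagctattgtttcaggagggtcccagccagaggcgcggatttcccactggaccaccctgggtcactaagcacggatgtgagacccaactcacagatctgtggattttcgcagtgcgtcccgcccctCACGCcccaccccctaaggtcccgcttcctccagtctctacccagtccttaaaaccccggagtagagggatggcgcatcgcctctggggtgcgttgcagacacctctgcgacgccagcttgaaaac
Each window held 1 match. This short motif was in 32.4% of the 32851 promoters, so its presence here does not set these genes apart.

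LECs of the small intestine were then set beside the 217 LECs of the colon library. Of 9169 genes with at least 100 UMIs together, 1409 (15.4%) were at least 2-fold higher in the small intestine and 316 (3.45%) at least 2-fold lower, with a median log2 ratio of 0.27. These shares are the background for the list counts against colon LECs below, and they moved with the totals. A set of 9 genes, led by Gm42418, a gene model that overlaps ribosomal RNA sequence, took 13.1% of the UMIs of colon LECs and 0.478% of those of small intestinal LECs, and 10.9% and 0.280% in the other cells of each library. With totals computed without these 9 genes, 944 genes were at least 2-fold higher and 438 lower. All log2 ratios were then lower by 0.20, and the median over all genes was 0.07. Tissue, library, digestion time and animals cannot be told apart in this comparison. At least 1 UMI of a Y-linked gene was found in 65.0% of small intestinal LECs and Xist was not listed in that table, while among the colon LECs 98 cells held Xist without Y-linked UMIs and 53 the reverse, so the sex of the animals cannot be told apart from the tissue either.

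The 8 genes with the largest ratio towards the small intestine, with 10 CPM added, were Cyp26b1, Cyp1b1, Wnt2, Eda, Chrm3, St6galnac3, Fabp4 and Adam12. Cyp26b1 was at 423 CPM in small intestinal and 4.69 CPM in colon LECs, and Wnt2 at 214 and 14.1, with UMIs in 6.45% of colon LECs. Eda was at 795 and 81.7 CPM, a log2 ratio of 3.28 (2.98 to 3.60), the sialyltransferase gene St6galnac3 at 872 and 94.8, and the muscarinic receptor gene Chrm3 at 224 and 17.8. Fabp4 was at 745 and 80.7 CPM, a log2 ratio of 3.21 (2.90 to 3.53). Other retinoid genes were higher in the small intestine as well: Rarb was at 398 and 90.1 CPM, and Dhrs3 at 364 and 86.4. In all, 4 of 8 compared retinoid genes were at least 2-fold higher in the small intestine and 1 lower, with a median log2 ratio of 0.91.

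**Figure D5:**
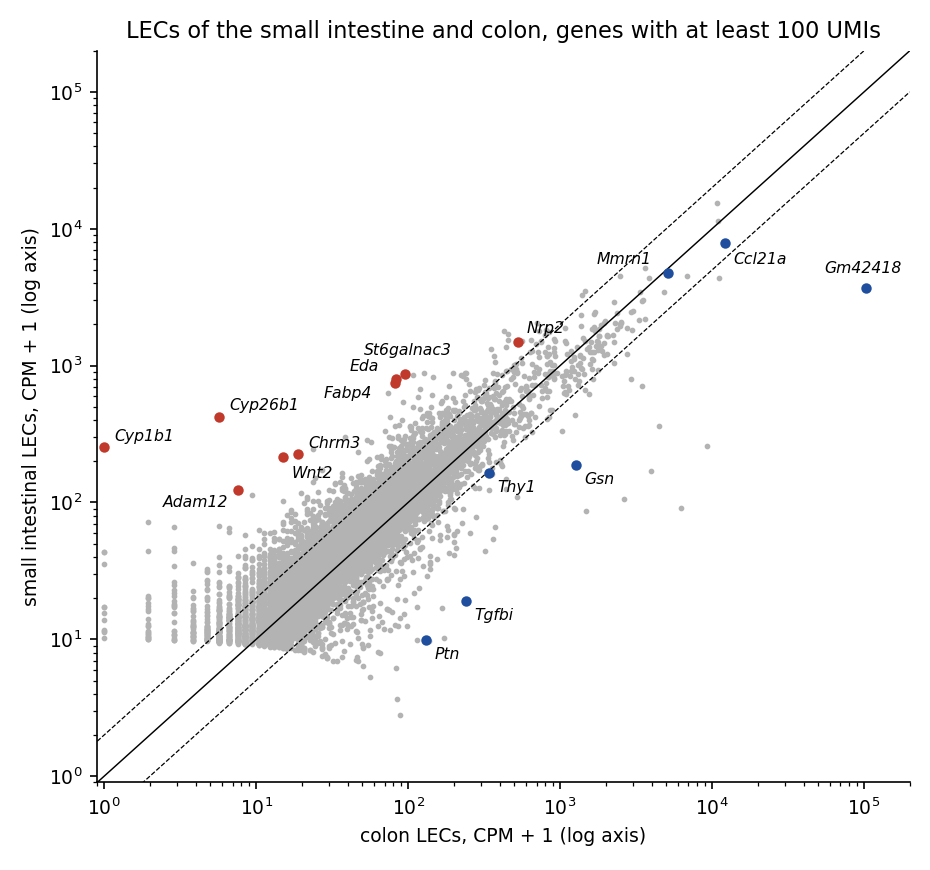
Level of each gene with at least 100 UMIs together in colon LECs (horizontal) and small intestinal LECs (vertical), as CPM plus 1 on log axes, with a solid line for equal levels and dashed lines for 2-fold. Cyp26b1 and Cyp1b1 lie farthest above the lines, Tgfbi, Ptn and Gm42418 below, and Mmrn1 and Ccl21a near the line of equal levels.

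Lipid handling genes included 6 of 15 at least 2-fold higher in the small intestine (Fabp4, Angptl4, Fabp5, Lpl, Cd36 and Cpt1a) and 2 lower, with a median log2 ratio of 0.52. Lpl was at 119 and 48.8 CPM, and Cd36 at 34.4 and 16.9. With totals without the 9 genes, 4 lipid genes were higher and 2 lower. Of 15 antigen presentation and interferon genes, 6 were at least 2-fold higher and none lower, with a median log2 ratio of 0.69, and with totals without the 9 genes 2 were higher, with a median of 0.49. H2-K1 was at 3501 and 1453 CPM. The class II genes were not part of this, with H2-Ab1 at 58.0 and 78.8 CPM. Of 14 guidance genes 5 were higher (Nrp2, Sema3a, Plxnd1, Unc5b and Ephb4) and 2 lower, with a median of 0.80, and Nrp2 was at 1499 and 527 CPM.

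Of the 15 lymphatic identity genes, 2 were at least 2-fold higher in the small intestine (Stab2 and Reln) and 1 lower (Thy1), beside 15.4% and 3.45% of all genes tested. The median log2 ratio was 0.19, and with totals without the 9 genes it was -0.01 and 2 genes were lower. Lyve1 was at 2973 and 3462 CPM, Mmrn1 at 4776 and 5104, and Prox1 at 804 and 473. Stab2, a hyaluronan scavenger receptor, was at 64.0 and 5.63 CPM, and Reln at 3273 and 1399. Rspo3 was at 281 and 173 CPM, a log2 ratio of 0.70 (0.49 to 0.93), so it differed less than Wnt2. The immediate early and heat shock list was also higher in the small intestine, with 10 of 17 genes at least 2-fold higher, 1 lower (Ier3) and summed levels of 19378 and 10246 CPM. With totals without the 9 genes, 8 of the 17 were higher and 1 lower.

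On the colon side, the 8 genes with the largest ratio were all among the 9 genes that moved with Gm42418 (3695 CPM in small intestinal and 102540 in colon LECs). After these the leading genes were Tgfbi, Gm48099, Ptn, Hist1h4d, Gsn, Tcf21, Rarres2 and Hist1h1e. Without the 6% of cells with the highest Scrublet doublet scores, the log2 ratio of small intestinal to colon LECs went from -2.87 to -0.93 for Rarres2 and from -3.67 to -2.03 for Tcf21. Both were high in fibroblasts, at 1595 and 565 CPM in small intestinal CD81- FBs. Tgfbi, a matrix adhesion protein gene, was at 17.9 and 241 CPM. Gsn was at 187 and 1280.3 CPM, but at 5736 CPM in the 28 colon LECs (12.9%) with at least 5 fibroblast marker UMIs and 190.4 CPM in the others, against 3066 and 43.6 CPM in the corresponding sets of small intestinal LECs. Ptn and Tgfbi were lower in the colon LECs that held fibroblast UMIs, at 38.2 and 172 CPM in the 28 cells against 153 and 258 CPM in the others. Without such cells in either library, 1509 genes were at least 2-fold higher in the small intestine and 212 lower. Ackr2 was at 66.7 and 178 CPM, and Thy1 at 163 and 342.

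At a coarser resolution of the clustering, the LECs fell into clusters of 1399, 1047 and 52 cells, of which the last held 47 of the 66 cells with fibroblast UMIs. Of the 8 genes with the largest ratio towards the small intestine, 8 were higher in the first than in the second cluster, beside 5679 of 8713 genes in all. The interval of Eda included 0. The clusters were made from the same cells' gene levels, so these counts and intervals are descriptions and no test. Cyp26b1 was at 511 CPM in the first and 330.3 in the second, Cyp1b1 at 316 and 176, Adam12 at 174 and 54.1, and Wnt2 at 229.6 and 208. Of the 8 genes that led on the colon side after the 9 genes, 6 were higher in the second cluster, beside 3034 of 8713 genes in all. Only Tgfbi and Rarres2 had an interval that excluded 0, both higher in the second cluster. Tgfbi was at 3.38 CPM in the first and 31.6 in the second. The second cluster also had more of the immediate early and heat shock list, 28917 against 12648 CPM, although colon LECs had less of it than small intestinal LECs. The part of dissociation in these clusters was not tested. Across 10400 genes, the profile of colon LECs had a Spearman correlation of 0.873 with the first cluster and 0.896 with the second, and no test of this difference was made.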

How the data were processed

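Droplet 3' single-cell RNA libraries of sorted intestinal stroma, 1 from the small intestine and 1 from the colon, were analysed. The authors deposited raw UMI counts per gene and cell, a table on the natural log scale, and cell type labels. Per the submitters' processing notes, Cell Ranger 7.1.0, Seurat 4 and the build mm10 were used. The authors' natural log values equalled ln(1 + 10000 × UMIs / cell total), with a largest deviation of 6.22e-15. Filters the authors applied to cells, and whether doublets were removed before deposit, were not given in the sources used here.

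Cells were taken by the deposited labels. All 15377 cells had a label and a column, 0 columns lay outside the 2 libraries, and 21 cell barcodes occurred in both. UMI counts were summed per type and expressed as CPM, since 1 library per tissue allows no count model across samples. Ratio intervals are exact conditional binomial, CPM intervals exact Poisson and shares Clopper-Pearson, all at 95% and covering counting error only. Genes compared had at least 100 UMIs on both sides together (30 for clusters), and a fold against 0 used a floor of 3 counts. On Poisson counts simulated with known changes, intervals covered the simulated ratio of 97% of changed and 95.5% of unchanged genes among 9497 (LECs and BECs). For small intestinal and colon LECs the shares were 98% and 95.7% among 9169. The intervals themselves assume Poisson counts, so such coverage was built in. It checks the calculation only, and not the variation among cells or animals.

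LECs were clustered with scanpy 1.11.5 and leidenalg 0.10.2 (2000 variable genes, 20 principal components, 15 neighbours, resolution 0.5). Residual variance used a theta of 100 and genes in at least 1% of LECs. Other tools were Python 3.11.15, numpy 2.4.6, pandas 2.3.3, scipy 1.17.1 and matplotlib 3.10.9. Scrublet, at an expected share of 6%, marked 85 small intestinal cells (0.908%) and 1 colon cell, too few to serve in the colon, and no cell was removed.

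Named genes were the 7 markers, the 15 genes highest over every other type, the 10 highest and lowest over BECs, the 8 highest and lowest over colon LECs, the 15 most variable, 6 per cluster, and examples from 29 gene lists. Rankings added 10 CPM to both sides and required UMIs in at least 10% of cells of the higher side. They left out mitochondrial, ribosomal protein, haemoglobin, immunoglobulin and sex-linked genes. The cells, lists and rules were chosen with earlier results of these data known, and genes added beyond the rules (Cyp1a1 and Ahrr among them) were chosen after their values were seen. The other genes of the 9 that moved with Gm42418, and a few further genes that the rules or lists hold, are not reported here. Of 18262 small intestinal gene symbols, 17975 (98.4%) matched the RefSeq tables.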

Additional observations from a re-analysis of the deposited data

How the results depend on the processing

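No paired analysis was possible because each tissue had 1 library. Of 80 values recomputed under other settings, 62 stayed within the limits set, 18 moved and 0 reversed. Differences between means of the natural log values, put on the log2 scale, are small for sparse genes and are not fold changes of CPM. At the same limits on that scale, 153 genes were higher in LECs than in BECs and 136 lower. Between small intestinal and colon LECs, 53 were higher and 24 lower. Against every other type 19 were higher, and the lymphatic identity median was 2.48. At a minimum of 30 UMIs, 1196 genes were lower than in BECs and 680 lower than in colon LECs. Without the 6% highest Scrublet scores, 208 genes were lower than in colon LECs, the identity median was 7.31 and the LEC share 27.7%. That median was 4.43 without cells marked by Scrublet, 4.90 with the mean CPM per cell and 6.42 without the 25 BECs, the last chosen after seeing the data, as were the totals without 9 genes and the removal of LECs with fibroblast UMIs from both libraries together. Over genes of at least 50 CPM, the correlation was 0.707 with BECs and 0.467 with CD81- FBs. The LECs formed 3 clusters at resolution 0.3 and 15 at 1.0. Among single genes, 28 of 30 log2 ratios to BECs moved beyond their counting interval without the 6% highest scores, and 5 of 24 to colon LECs. Without the cell of most UMIs, 0 of 30 and 3 of 24 moved. All 34 shares of cells moved after thinning. The colon comparison rests on 217 LECs with 1065387 UMIs.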

Other observations

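The 24 cells that carried the label Proliferating were mostly lymphatic by their markers. Mmrn1 and Reln were each found in 19 of the 24, Prox1 and Lyve1 in 18, and Flt1 in 0, while Dcn was found in 10. Mki67 was found in 20 of them and Top2a, another gene of dividing cells, in 22. In 19 of the 24 cells (79.2%), 6 lymphatic markers made up more than 0.3% of the UMIs. Their median depth was 9546.5 UMIs, against 4117.5 in LECs, and all 24 were among the highest 6% of Scrublet scores. The count of 15 LECs with a Mki67 UMI therefore leaves out cells set aside under that label.

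When stress, cell cycle, mitochondrial and ribosomal genes were kept out of the clustering, 74 LECs (2.96%) formed a cluster led by Ccl2, at 994 CPM against 37.4 in the other LECs, with Pdgfa, a growth factor gene, at 229 against 31.2 CPM. One LEC held 163 of the 803 Ccl2 UMIs of all LECs. Another cluster of 408 LECs was led by Nts, the gene of the gut peptide neurotensin, at 187 against 25.0 CPM, with Clca3a1 at 207 against 30.9 CPM. It held 24 of the 26 cells led by Flrt2.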
